A study of Mus musculus with 21 samples.

Results

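Serine and mitochondrial one-carbon metabolism was followed through 10 genes in bulk RNA-seq of mouse quadriceps muscle. The genes were Phgdh, Psat1 and Psph (serine synthesis), Shmt2, Mthfd2 and Mthfd1l (mitochondrial one-carbon metabolism), Slc7a5 and Slc3a2 (amino acid transport), Asns (asparagine synthesis) and Sesn2 (amino acid sensing). They were chosen by symbol as genes linked to the transcription factor ATF4, and all 10 were found among the 53738 gene symbols of the table. Values were TPM, transcript abundances corrected for transcript length and put on a common total. In 4 of the 10 genes the mean over all libraries was at least 1 TPM, the minimum for testing, which 11819 symbols reached. The other 6 lay below it.

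All mice were adult wildtype C57/Bl6 males, and each of the 7 groups had 3 libraries. Sedentary mice had neither trained nor exercised. Trained mice had 12 weeks of voluntary wheel running, untrained mice had none, and both ran on a treadmill until exhausted. After this bout, the last of their performance tests, they were sacrificed at once (0 h), 6 h later or 72 h later. A trained group without the bout was not analysed here, so in a comparison of trained with sedentary muscle the training and the bout cannot be told apart. Each exercised group was compared with sedentary muscle to follow the response to the bout. The trained and untrained groups of a time point were compared to ask whether they differed after it. In that comparison too, a difference present before the bout and an altered response to it cannot be told apart. The 9 comparisons were fitted with limma on log2(TPM + 0.5) over all 11819 genes, and genes that passed a Benjamini-Hochberg adjusted p of 0.05 and differed at least 1.5-fold on this scale were called. The latter limit is named the fold threshold below.

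Replicate 1 of the untrained 0 h group and replicate 1 of the trained 0 h group had the same value at all 53738 symbols, including 25037 with a value above 0. This left 20 distinct libraries, and the calls of members and pathway genes at 0 h are given with this library in both groups and with it left out of both. Shares and medians over all genes or over a list at 0 h are given with it unless stated. TPM values keep no sequencing depth, so no counting error can be given for the 6 low genes. The library kit used does not keep the strand of the RNA. The sources used here do not say whether the 3 libraries of a group came from separate mice, beyond their replicate numbers, so p-values measure the spread between these libraries only. Summed markers of muscle fibres lay between 54800 and 75900 TPM in every library, and all 7 were present. In bulk tissue, fewer cells of a type and less RNA per cell cannot be told apart.

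Serine is made from an intermediate of glycolysis in a chain of steps catalysed by PHGDH, PSAT1 and PSPH. In mitochondria, SHMT2 transfers a carbon unit from serine to tetrahydrofolate and so forms glycine. MTHFD2 oxidises that unit and MTHFD1L releases it as formate, which the cytosol uses to make purines, thymidylate and methyl groups. ATF4 is a transcription factor whose translation increases when the initiation factor eIF2α is phosphorylated, and it induces genes of amino acid synthesis and uptake in many tissues, including muscle with impaired mitochondria. It binds with C/EBP partners to the C/EBP-ATF response element.

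Because the genes were chosen as linked to ATF4, their promoters were searched for the core of that element, TGATGNAA, on both strands. No binding data were used. RefSeq promoters on build GRCm38.p6, which span 250 bases before to 50 bases after a start site, were given for 9 of the 10 genes. The core was present in 1 of these 9 genes, Asns, and in 1219 of all 27025 genes (4.51%), or 1304 of 32851 promoters (3.97%). In Asns the match began at position −23 relative to the start site. The Asns promoter is shown for this match, in capitals, and that of Slc3a2 because it was the 1 member called among the 4 tested at a minimum of 1 TPM. A match is a description of the letters only.
Asns, chr6:7693160-7693459, minus strand: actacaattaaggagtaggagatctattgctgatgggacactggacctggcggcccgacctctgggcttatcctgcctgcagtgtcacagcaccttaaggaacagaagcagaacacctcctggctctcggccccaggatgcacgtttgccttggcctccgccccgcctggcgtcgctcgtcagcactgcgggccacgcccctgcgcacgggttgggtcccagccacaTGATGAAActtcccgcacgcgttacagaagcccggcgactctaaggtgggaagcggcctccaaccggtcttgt
Slc3a2, chr19:8713848-8714147, minus strand: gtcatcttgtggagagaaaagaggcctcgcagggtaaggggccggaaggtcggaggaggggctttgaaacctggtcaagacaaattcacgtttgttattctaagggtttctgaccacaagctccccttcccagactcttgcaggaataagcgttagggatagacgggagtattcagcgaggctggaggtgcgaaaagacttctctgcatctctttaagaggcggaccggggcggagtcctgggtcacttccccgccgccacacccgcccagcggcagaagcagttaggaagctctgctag

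The 10 genes were expressed at low to moderate levels in muscle. On the TPM scale the highest mean over all libraries was that of Slc3a2 (9.79 TPM), followed by Shmt2 (8.92), Psph (4.52) and Mthfd2 (1.91). Below 1 TPM lay Phgdh (0.717), Sesn2 (0.635), Asns (0.443), Psat1 (0.44), Slc7a5 (0.411) and Mthfd1l (0.108). No gene was at 0 in any library (0 of 21 libraries for each). Within the serine chain, the last enzyme Psph thus had a several-fold higher level than Phgdh and Psat1, and within the mitochondrial pathway Shmt2 stood above Mthfd2 and Mthfd1l. Shmt2 was also the gene with the smallest spread, with an SD within groups of 0.0499 on the log2(TPM + 0.5) scale, against 0.227 for Slc3a2.

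**Figure D1:**
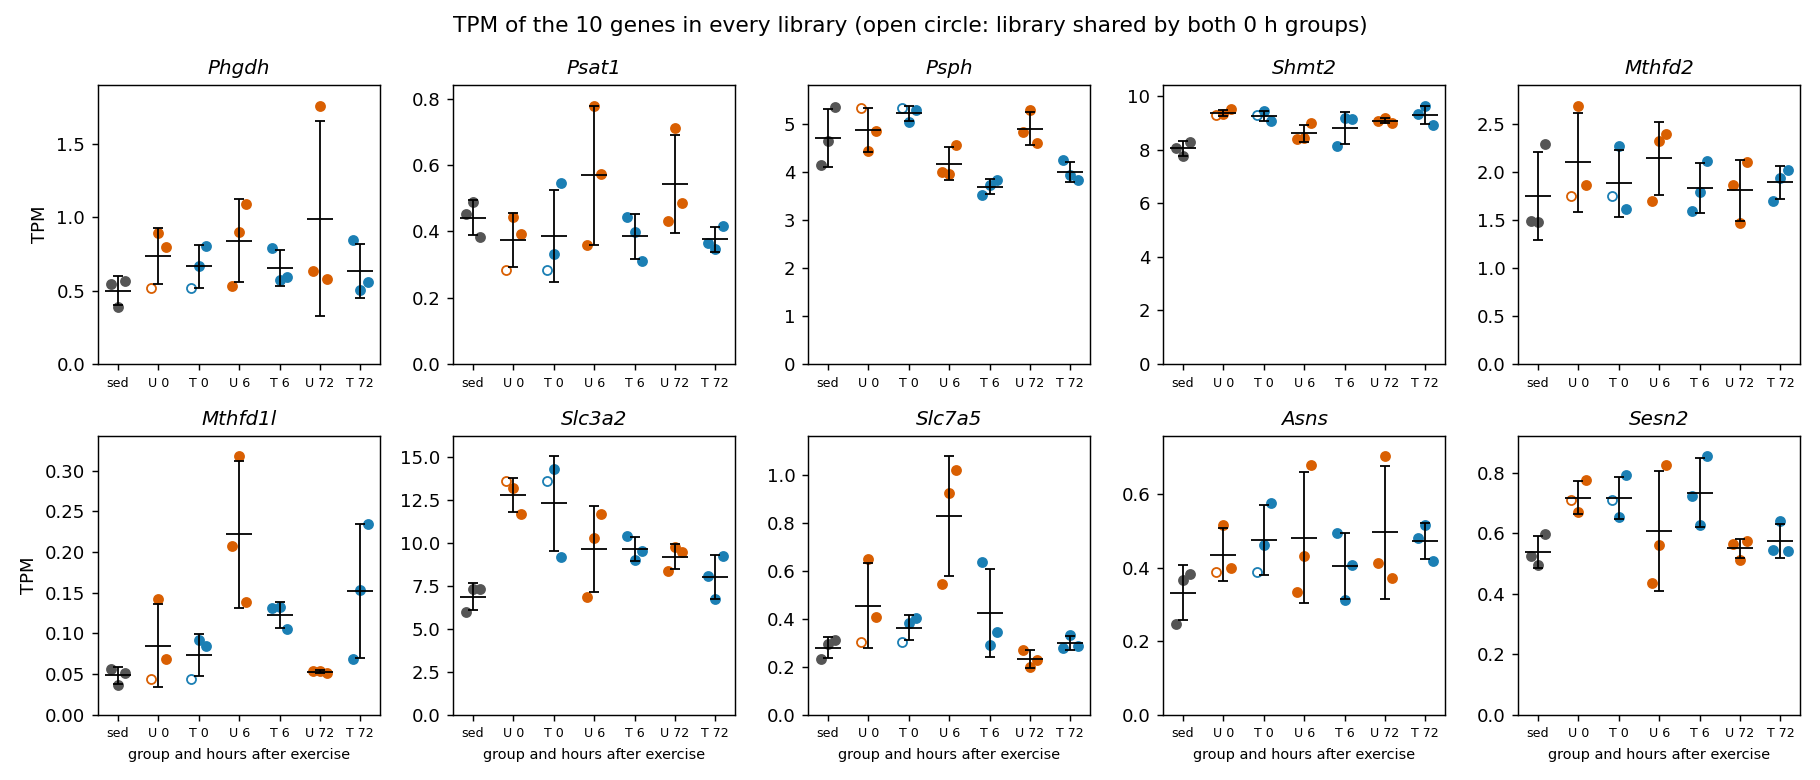
TPM (vertical axis, separate scale per gene) of the 10 genes in each library of the sedentary (sed), untrained (U) and trained (T) groups at 0, 6 and 72 h, with horizontal bars for the mean and error bars for the SD (n = 3). Slc3a2 lies highest in the 0 h groups, at a mean of 12.8 and 12.3 TPM, whereas Slc7a5 and Mthfd1l lie highest in untrained muscle at 6 h, at 0.828 and 0.222 TPM.

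Slc3a2, which encodes the heavy chain that carries LAT1 and related amino acid transporters to the membrane, was the only one of the 4 tested genes to be called, and it rose directly after exercise. It lies on chromosome 19, 8684245 to 8701108, minus strand (GRCm39). Sedentary libraries had 5.97, 7.32 and 7.34 TPM. At 0 h it had 13.6, 13.2 and 11.7 TPM in untrained and 13.6, 14.3 and 9.18 TPM in trained libraries, the first value of each being the shared library. All 5 distinct libraries at 0 h were above every sedentary library. Of all tested genes, 22.9% lay wholly above sedentary muscle in the untrained and 26.3% in the trained 0 h group. The level at 6 h was 6.87, 10.3 and 11.7 TPM in untrained and 10.4, 9.0 and 9.53 TPM in trained muscle, and at 72 h 8.38, 9.79 and 9.47 TPM in untrained and 8.09, 6.72 and 9.26 TPM in trained muscle. The untrained 6 h and trained 72 h groups overlapped with sedentary muscle, and the trained 6 h and untrained 72 h groups did not. Wholly above sedentary muscle were 13.9% of all tested genes in the trained 6 h and 9.04% in the untrained 72 h group.

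The rise of Slc3a2 at 0 h was 1.87-fold in untrained muscle, from 6.88 ± 0.784 to 12.8 ± 0.976 TPM (SD, n = 3), with a log2 fold change of 0.86 (SE 0.18, adjusted p = 0.0064 by limma). In trained muscle it was 1.79-fold, to 12.3 ± 2.75 TPM, with a log2 fold change of 0.78 (SE 0.18, adjusted p = 0.012 by limma). Among all tested genes, 2.97% were called upregulated in untrained and 3.39% in trained muscle at 0 h, and 0.618% and 0.347% were called downregulated. At 0 h the summed macrophage markers were 49.6 to 54.6 TPM against 39.5 to 43.4 TPM in sedentary muscle, the summed fibre markers 67700 to 75900 against 56500 to 65800 TPM, and the summed endothelial markers 71.7 to 83.4 against 72.8 to 92.5 TPM, of which Kdr alone (1 of 5) was called, as lower. Their part in the rise was not tested. Without the shared library (n = 2), the call held in untrained muscle, at a log2 fold change of 0.82 (limma adjusted p = 0.038), and did not in trained muscle, at 0.70 (limma adjusted p = 0.065). The trained call was also lost without sedentary replicate 1 (0.69, limma adjusted p = 0.063), trained 0 h replicate 1 alone (0.70, limma adjusted p = 0.054) or trained 0 h replicate 2 (0.67, limma adjusted p = 0.056). The median log2 fold change of all tested genes at 0 h was 0.105 in untrained and 0.133 in trained muscle, and 0.0138 and 0.0122 after median-of-ratios scaling, where Slc3a2 rose by 0.76 and 0.65 (limma adjusted p = 0.0074 and 0.023).

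After 0 h, Slc3a2 was not called. Its log2 fold change at 6 h was 0.43 in untrained and 0.46 in trained muscle (limma adjusted p = 0.16 and 0.12), and at 72 h 0.40 and 0.20 (limma adjusted p = 0.84 and 0.71). Without untrained 6 h replicate 1, the lowest library of that group, Slc3a2 was called in untrained muscle at 6 h. Ordered by group mean, the level was highest in untrained 0 h, followed by trained 0 h, then the 6 h groups with equal means of 9.64 TPM, untrained 72 h, trained 72 h and sedentary muscle, and the libraries of each group overlapped with those of its neighbours in this order. Trained minus untrained differences in log2 level were −0.08 at 0 h, 0.03 at 6 h and −0.20 at 72 h (SE 0.18 each, limma adjusted p = 1.0, 0.97 and 0.65). The 0 h groups share a library, and without it the difference at 0 h was −0.12 (SE 0.23, limma adjusted p = 1.0).

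Exons of Slc3a2 share 743 bases with Snhg1, a long non-coding host gene of small nucleolar RNAs on the opposite strand. Reads from the shared bases cannot be told apart, since strand was not kept. Snhg1 was listed at 0.473 ± 0.148 TPM in sedentary, 0.539 ± 0.0462 in untrained 0 h and 0.717 ± 0.246 in trained 0 h muscle (SD, n = 3), far below the Slc3a2 level in each of these groups. The tested genes whose log2 level followed that of Slc3a2 most closely over the 20 distinct libraries were Uba1 (r = 0.893, Spearman's rho = 0.904), Gtpbp4 (r = 0.877, rho = 0.913) and Uspl1 (r = 0.874, rho = 0.871). Of the other tested members, the r with Slc3a2 was 0.486 for Shmt2, 0.47 for Mthfd2 and 0.272 for Psph. These values describe libraries that share time and scaling.

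Slc7a5, the catalytic light chain of LAT1 that takes up leucine and other large neutral amino acids, had its highest level in untrained muscle at 6 h. It lies on chromosome 8, 122607884 to 122634433, minus strand (GRCm39). Sedentary libraries had 0.23, 0.295 and 0.312 TPM, and untrained 6 h libraries 0.546, 0.922 and 1.02 TPM, with no overlap. Trained 6 h libraries had 0.635, 0.291 and 0.346 TPM, so that 1 of them lay within the untrained range and the others within or just above the sedentary one. At 0 h the values were 0.303, 0.648 and 0.407 TPM in untrained and 0.303, 0.381 and 0.403 TPM in trained muscle, the first of each being the shared library. At 72 h they were 0.27, 0.199 and 0.227 TPM in untrained and 0.277, 0.333 and 0.287 TPM in trained muscle, near the sedentary level. The mean at 6 h was 2.97 times the sedentary mean in untrained and 1.52 times in trained muscle.

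Since Slc7a5 and the other 5 low genes were not tested at a minimum of 1 TPM, a fit with a minimum mean of 0.05 TPM and a pseudocount of 0.05 was added after the data had been seen. This fit covered 21787 genes, of which 2.76% were called upregulated in untrained muscle at 6 h, and 2 of the 10 genes were called there. Slc7a5 rose with a log2 fold change of 1.38 (SE 0.28, adjusted p = 0.0061 by limma) and remained called when each of the 6 libraries was left out in turn (1.22 to 1.64). With no filter and the pseudocount of 0.5 it was called at 0.75 (limma adjusted p = 0.017). In the trained 6 h group Slc7a5 had a log2 fold change of 0.47 (limma adjusted p = 0.38). Set directly against the untrained group, the log2 difference was −0.91 (SE 0.28, limma adjusted p = 0.11), which did not pass the test. At 0 h none of the 6 low genes was called, with or without the shared library (0 of 6), the values of Slc7a5 being 0.56 in untrained and 0.33 in trained muscle and 0.79 and 0.44 without it (limma adjusted p between 0.19 and 0.54).

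By group mean, Slc3a2 was thus highest at 0 h and Slc7a5 at 6 h. In both training states the Slc7a5 libraries at 0 h overlapped with those at 6 h. In trained muscle the 6 h mean came from libraries at 0.635, 0.291 and 0.346 TPM. No test compared these times. The ratio of Slc3a2 to Slc7a5 TPM was 24.8 ± 1.25 in sedentary muscle and 11.8 ± 0.722 in untrained muscle at 6 h (SD, n = 3), with ranges of 23.5 to 26.0 and 11.2 to 12.6 that did not overlap. In trained muscle at 6 h it was 25.0 ± 7.66, ranging from 16.3 to 31.0. At 0 h the ratio was 31.3 ± 12.3 in untrained and 35.0 ± 11.2 in trained muscle, with ranges on both sides of the sedentary one, and 20.4 to 28.7 and 22.8 to 37.5 without the shared library. At 72 h it was 40.6 ± 9.14 in untrained muscle, above the sedentary range in 3 of 3 libraries, and 27.2 ± 6.29 in trained muscle. No test was made of this ratio, which was computed after its components had been seen.

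**Figure D2:**
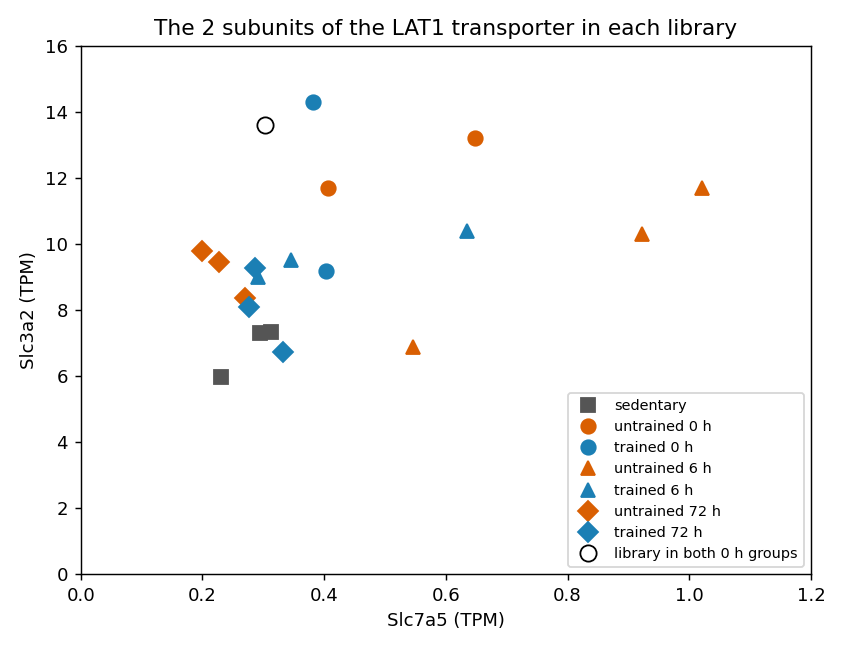
Slc3a2 (vertical axis, TPM) against Slc7a5 (horizontal axis, TPM) in each of the 20 distinct libraries, with symbols for time, colours for training state and an open circle for the library found in both 0 h groups. Libraries at 0 h spread upwards to 14.3 TPM of Slc3a2, and untrained 6 h libraries spread to the right to 1.02 TPM of Slc7a5.

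Markers of other cell types were read beside the transporter genes, since immune cells also express LAT1. The summed level of 8 macrophage markers was 39.5 to 43.4 TPM in sedentary, 35.2 to 74.2 TPM in untrained 6 h and 33.3 to 48.8 TPM in trained 6 h muscle, and none of the 8 was at 0 (0 of 8). Of the 7 macrophage markers tested, 2 were called upregulated in untrained muscle at 6 h, namely Cd68 (log2 fold change 1.62, limma adjusted p = 6.4e-05) and Csf1r (0.61, limma adjusted p = 0.019). Neutrophil markers summed to 0.397 to 1.21 TPM in untrained 6 h against 0.698 to 1.21 TPM in sedentary muscle, with Ly6g (1 of 4) at 0 in both groups. Markers of proliferating cells summed to 0.228 to 0.319 TPM against 0.284 to 0.468 TPM. Fibro-adipogenic markers summed to 132 to 361 TPM in untrained 6 h against 214 to 241 TPM in sedentary muscle, and endothelial markers to 65.2 to 78.5 against 72.8 to 92.5 TPM. For adipocyte markers the sums were 6.42 to 31.5 against 7.64 to 12.7 TPM, and for satellite cell markers 3.01 to 4.88 against 2.94 to 3.19 TPM. None of the tested markers of these last types was called upregulated there. Their part in the levels of Slc7a5 and Mthfd1l was not tested.

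Among the mitochondrial one-carbon genes, Mthfd1l, which releases formate, had its highest mean in untrained muscle at 6 h. It lies on chromosome 10, 3922870 to 4117081, plus strand (GRCm39). Sedentary libraries had 0.0563, 0.0364 and 0.0518 TPM, against 0.207, 0.318 and 0.139 TPM in untrained and 0.131, 0.133 and 0.105 TPM in trained muscle at 6 h. Both 6 h groups were above every sedentary library. At 0 h the values were 0.0442, 0.142 and 0.0688 TPM in untrained and 0.0442, 0.0915 and 0.0848 TPM in trained muscle, the first of each being the shared library. At 72 h untrained libraries had 0.054, 0.0542 and 0.0507 TPM, within the sedentary range, whereas trained libraries had 0.0683, 0.154 and 0.234 TPM, above it.

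In the fit with the lower minimum, Mthfd1l rose in untrained muscle at 6 h with a log2 fold change of 1.42 (SE 0.32, adjusted p = 0.014 by limma). On the TPM scale its mean was 4.6 times the sedentary mean. The log2 value is the smaller change, since the sedentary mean of 0.0482 TPM was near the pseudocount of 0.05. The call of Mthfd1l was lost without sedentary replicate 2 (1.33, limma adjusted p = 0.059) or untrained 6 h replicate 2 (1.17, limma adjusted p = 0.076). With no filter and the pseudocount of 0.5 the log2 fold change was 0.39, below the fold threshold (limma adjusted p = 0.0498). In trained muscle Mthfd1l had log2 fold changes of 0.82 at 6 h and 0.96 at 72 h (limma adjusted p = 0.16 and 0.31). The difference between trained and untrained muscle was −0.60 at 6 h and 0.88 at 72 h (limma adjusted p = 0.41 and 0.31). At these low levels the counting error is not known. Exons of Mthfd1l share 150 bases with Gm67105 on the opposite strand.

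**Figure D3:**
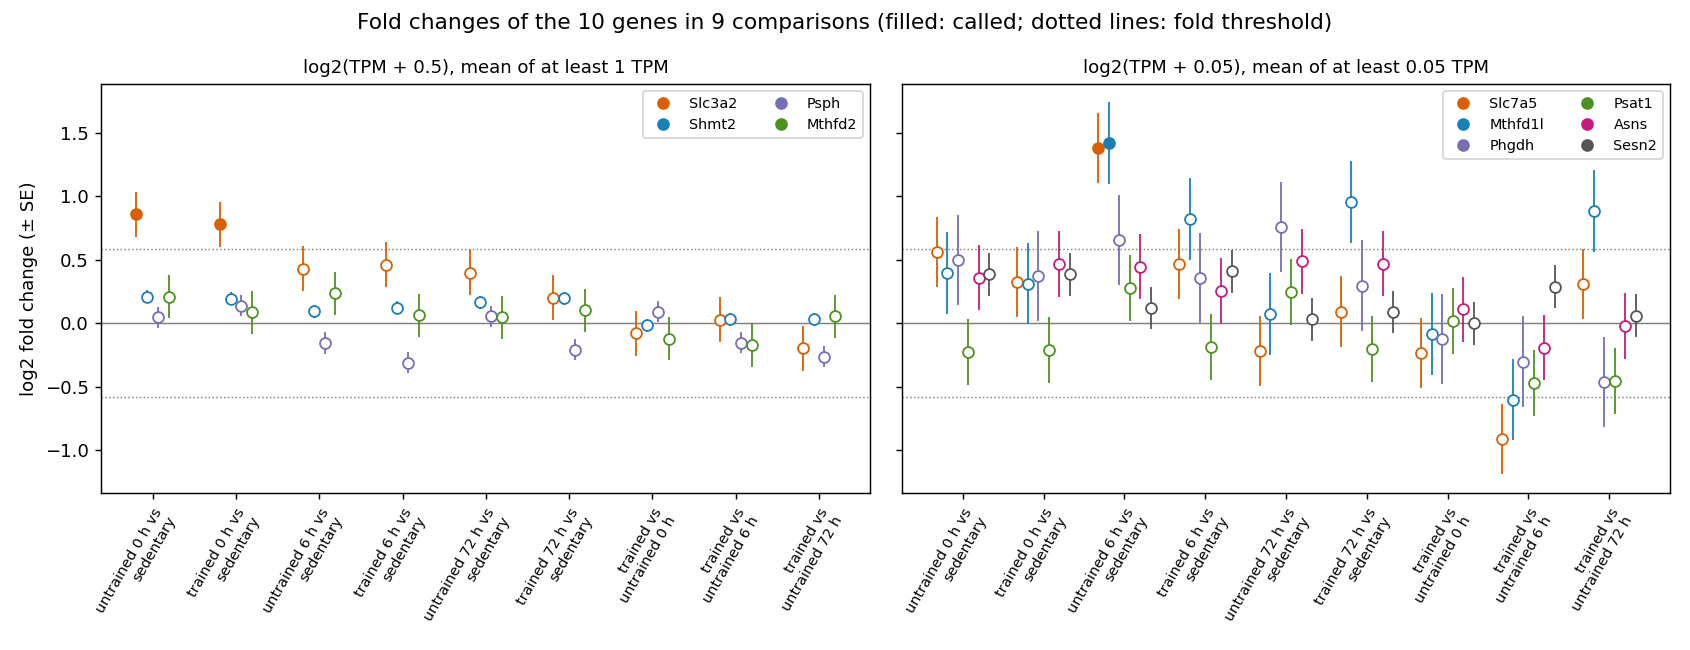
Log2 fold changes with their SE (vertical axis) in the 9 comparisons (horizontal axis), for the 4 genes tested at a minimum of 1 TPM (left) and for the other 6 in the fit with a minimum of 0.05 TPM that was added after the data had been seen (right). Filled symbols are called, which holds for Slc3a2 at 0 h (0.86 and 0.78) and for Slc7a5 and Mthfd1l in untrained muscle at 6 h (1.38 and 1.42).

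Shmt2, the mitochondrial serine hydroxymethyltransferase, differed little between groups but had narrow replicates. It lies on chromosome 10, 127352266 to 127358323, minus strand (GRCm39). Sedentary libraries had 8.07, 7.74 and 8.29 TPM. The 0 h libraries had 9.27, 9.32 and 9.5 TPM in untrained and 9.27, 9.45 and 9.06 TPM in trained muscle. All lay above sedentary muscle, as was so for 22.9% of all tested genes in untrained and 26.3% in trained muscle. The log2 fold change was 0.21 in untrained and 0.19 in trained muscle (SE 0.05, limma adjusted p = 0.016 and 0.022), below the fold threshold. By the adjusted p alone, 6.49% of all tested genes were higher in untrained and 8.68% in trained muscle at 0 h, and 2 of the 4 tested members were, Shmt2 and Slc3a2. The small difference of Shmt2 was 0.22 and 0.19 without the shared library and did not pass with these fewer libraries (limma adjusted p = 0.053 and 0.071), nor after median-of-ratios scaling, where it was 0.11 and 0.07 (limma adjusted p = 0.33 and 0.67). At 72 h the log2 fold change was 0.17 in untrained and 0.20 in trained muscle (limma adjusted p = 0.66 and 0.10).

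Exons of Shmt2 share 727 bases with Ndufa4l2 on the opposite strand, whose level was 5.0 ± 0.607 TPM in sedentary muscle and 4.69 ± 0.956 and 4.4 ± 0.41 TPM in the untrained and trained 0 h groups (SD, n = 3). Mthfd2, the dehydrogenase and cyclohydrolase of the pathway, was between 1.47 and 2.69 TPM in all libraries. Its group means ran from 1.75 ± 0.462 TPM in sedentary to 2.14 ± 0.376 TPM in untrained 6 h muscle (SD, n = 3), with overlapping libraries. The largest log2 fold change of Mthfd2 against sedentary muscle was 0.24, in untrained muscle at 6 h (SE 0.17, limma adjusted p = 0.48).

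None of the serine synthesis genes was called in any comparison (0 of 3). Psph, the phosphatase of the last step (chromosome 5, 129841925 to 129864513, minus strand, GRCm39), was lowest at 6 h in trained muscle. Its libraries there had 3.52, 3.74 and 3.83 TPM against 4.16, 4.65 and 5.37 TPM in sedentary muscle, and these groups did not overlap. The share of all tested genes wholly below sedentary muscle in the trained 6 h group was larger than the 13.9% wholly above it. The log2 fold change of Psph in this group was −0.31 (SE 0.08, limma adjusted p = 0.025), below the fold threshold. By the adjusted p alone, 4.66% of all tested genes were lower in this comparison. The adjusted p of Psph was 0.059 without sedentary replicate 2, 0.11 without sedentary replicate 3, 0.097 without trained 6 h replicate 1 and 0.054 without trained 6 h replicate 2. In untrained muscle at 6 h the log2 fold change of Psph was −0.16 (limma adjusted p = 0.30), and trained and untrained muscle differed by −0.15 at 6 h and −0.26 at 72 h (limma adjusted p = 0.34 and 0.17). Psph shares 465 exon bases with Cct6a on the opposite strand, which was at 43.8 ± 1.04 TPM in sedentary and 47.0 ± 1.09 TPM in trained 6 h muscle (SD, n = 3), a far higher level than that of Psph.

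Phgdh, the enzyme that commits the glycolytic intermediate to serine (chromosome 3, 98220484 to 98255047, minus strand, GRCm39), varied widely between libraries. Sedentary libraries had 0.545, 0.388 and 0.567 TPM. At 0 h the values were 0.519, 0.889 and 0.797 TPM in untrained and 0.519, 0.668 and 0.807 TPM in trained muscle, the first of each being the shared library and within the sedentary range. At 6 h they were 0.534, 0.898 and 1.09 TPM in untrained and 0.792, 0.573 and 0.592 TPM in trained muscle. Untrained 72 h libraries had 0.635, 1.76 and 0.579 TPM, where 1 library stood far above the others, and trained 72 h libraries 0.842, 0.501 and 0.557 TPM. With the lower minimum, its largest log2 fold change was 0.76, in untrained muscle at 72 h (SE 0.36, limma adjusted p = 0.80). A pseudogene copy, Phgdh-ps1, is annotated, and how reads were divided between the copies is not given in the sources used here.

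Psat1, the aminotransferase of the chain (chromosome 19, 15882039 to 15924701, minus strand, GRCm39), had 0.453, 0.489 and 0.383 TPM in sedentary muscle. At 0 h it had 0.285, 0.445 and 0.391 TPM in untrained and 0.285, 0.331 and 0.545 TPM in trained muscle, the first of each being the shared library. Values on both sides of the sedentary range were also seen at 6 h, with 0.359, 0.779 and 0.573 TPM in untrained muscle, whereas trained libraries with 0.445, 0.399 and 0.31 TPM were within or below it. At 72 h untrained libraries had 0.433, 0.711 and 0.486 TPM and trained libraries 0.366, 0.346 and 0.417 TPM. Its log2 fold changes against sedentary muscle in the fit with the lower minimum lay between −0.23 and 0.28, with an SE of 0.26, and none was called (0 of 6). The difference between trained and untrained muscle was −0.47 at 6 h and −0.45 at 72 h (limma adjusted p = 0.43 and 0.54).

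Asns, asparagine synthetase and the gene with the response element core shown above, lies on chromosome 6, 7671667 to 7728461, minus strand (GRCm39). Sedentary libraries had 0.246, 0.366 and 0.384 TPM. Libraries at 0 h had 0.389, 0.518 and 0.4 TPM in untrained and 0.389, 0.462 and 0.577 TPM in trained muscle, all above sedentary muscle, though the lowest only by a small margin. Those at 6 h had 0.334, 0.432 and 0.68 TPM in untrained and 0.494, 0.313 and 0.408 TPM in trained muscle, overlapping with sedentary muscle. At 72 h there were 0.414, 0.704 and 0.373 TPM in untrained and 0.482, 0.518 and 0.419 TPM in trained muscle. The log2 fold changes with the lower minimum were 0.36 and 0.47 at 0 h (SE 0.26, limma adjusted p = 0.48 and 0.31) and 0.45 in untrained muscle at 6 h (limma adjusted p = 0.39), and Asns was called in 0 of 6 comparisons with sedentary muscle. Its exons share 391 bases with 1700012J15Rik on the opposite strand.

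Sesn2, a leucine sensor that restrains the growth kinase complex mTORC1 (chromosome 4, 132219335 to 132237815, minus strand, GRCm39), had 0.524, 0.494 and 0.597 TPM in sedentary muscle. At 0 h the values were 0.709, 0.669 and 0.777 TPM in untrained and 0.709, 0.654 and 0.792 TPM in trained muscle, the first of each being the shared library, and all lay above sedentary muscle. At 6 h trained libraries, with 0.723, 0.628 and 0.855 TPM, were above sedentary muscle, whereas untrained libraries, with 0.435, 0.562 and 0.825 TPM, were spread on both sides of it. The 72 h libraries had 0.563, 0.512 and 0.574 TPM in untrained and 0.546, 0.64 and 0.54 TPM in trained muscle, close to sedentary muscle. The log2 fold change with the lower minimum was 0.39 in both 0 h groups (SE 0.17, limma adjusted p = 0.21 and 0.20) and 0.41 in trained muscle at 6 h (limma adjusted p = 0.18), and none passed the test.

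Read across all 10 genes, group means above the sedentary mean were found in 9 genes at 0 h in untrained and 9 in trained muscle, in 9 and 8 at 6 h and in 9 and 8 at 72 h. Without the shared library, the 0 h counts were 8 and 9 of 10, with a median fold of 1.36 and 1.37, against 59.2% and 65.7% of all symbols and medians of 1.05 and 1.09. Among all 21787 symbols with a mean of at least 0.05 TPM, the share with a higher mean was 60.7% and 65.7% at 0 h, 49.8% and 44.7% at 6 h and 58.9% and 42.1% at 72 h. The median fold of the 10 genes was 1.32 and 1.31 at 0 h, 1.35 and 1.26 at 6 h and 1.11 and 1.12 at 72 h, against medians over these symbols of 1.07 and 1.09, 1.0 and 0.974, and 1.03 and 0.969. These folds share the same 3 sedentary libraries, so the groups are not independent of each other. All 3 libraries were above every sedentary library in 4 and 4 of the 10 genes at 0 h, 3 and 4 at 6 h and 3 and 3 at 72 h, where the share over these symbols was 17.1% and 19.3%, 9.43% and 10.7%, and 8.72% and 5.99%. With 2 libraries per 0 h group, the shared one being left out, these numbers were 7 and 7 of the 10 genes and 21.8% and 27.1% of all symbols.

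Beyond 0 h, limma at a minimum of 1 TPM called 0 of the 4 tested members. At 6 h the unadjusted p was below 0.05 for 1 member in untrained and 3 in trained muscle. The same held for 2574 and 2854 of all 11819 tested genes. Of all tested genes, 3.53% and 2.41% were called upregulated at 6 h and 0.888% and 1.44% downregulated. At 72 h the unadjusted p was below 0.05 for 2 members in untrained and 2 in trained muscle. It was so for 682 and 1379 of all 11819 tested genes, of which 0.00846% and 0.169% were called. Between trained and untrained muscle, 0 members were called at any time by limma, with 0, 0 and 1 of them at an unadjusted p below 0.05 in time order. In these comparisons 0.0% of all tested genes were called at 0 h, with 143 genes at an unadjusted p below 0.05, or 527 and still 0 calls without the shared library, 0.558% higher and 1.46% lower in trained muscle at 6 h, and 0.245% at 72 h.

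Genes of the same and neighbouring pathways were listed as 8 groups with 119 genes, of which 95 were tested and 17 were called at least once. At 0 h, 8 rose in untrained and 9 in trained muscle and 0 fell, and these were 8.42% and 9.47% of the 95, where 2.97% and 3.39% of all tested genes were called upregulated. The same 8 and 9 genes were called without the shared library. In the untrained 6 h group 10 rose (10.5%, against 3.53% of all tested genes) and 1 fell, and in the trained 6 h group 7 rose (7.37%, against 2.41%) and 0 fell. No test compared these shares. At 72 h, 0 were called in either group by limma. At an unadjusted p below 0.05 were 5 and 18 of the 95, beside 682 and 1379 of all 11819 tested genes. The median log2 fold change of the 95 genes was 0.0958 and 0.165 at 0 h and 0.0535 and 0.0425 at 6 h, beside 0.105 and 0.133, and 0.0148 and −0.0146, over all tested genes.

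The list of eIF2α and ATF4 regulators held 14 tested genes. Atf3, a repressor and activator that is itself induced by ATF4, rose from 0.841 ± 0.102 TPM to 34.0 ± 2.06 TPM in the untrained and 39.4 ± 14.2 TPM in the trained 0 h group (SD, n = 3), with log2 fold changes of 4.69 and 4.84 (limma adjusted p = 1.8e-05 and 1.3e-05). Without the shared library they were 4.64 and 4.87. Cebpb, a partner of ATF4 on DNA, rose 4.02-fold and 4.78-fold at 0 h, from 4.42 ± 0.63 to 17.8 ± 4.27 and 21.2 ± 3.58 TPM (log2 fold changes 1.87 and 2.13, limma adjusted p = 1.9e-05 and 5.6e-06). Ppp1r15a, the phosphatase subunit that reverses eIF2α phosphorylation, rose 1.96-fold and 2.11-fold (log2 fold changes 0.93 and 1.04, limma adjusted p = 0.0015 and 0.00052). Of these, 3 of 14 rose at 0 h in untrained and 4 of 14 in trained muscle, the last being Ppp1r15b (0.72, limma adjusted p = 0.0046). All of these calls held without the shared library. At 6 h Atf3 was 6.29 and 2.90 above sedentary muscle in untrained and trained muscle on the log2 scale, Cebpb 0.91 and 0.74 (limma adjusted p = 0.010 and 0.030) and Ppp1r15a 0.82 in untrained muscle (limma adjusted p = 0.0036). The trained call of Cebpb at 6 h was lost without any 1 of the other libraries compared and held without sedentary replicate 3 (0.68 to 0.85, limma adjusted p up to 0.10).

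Atf4 itself, which was named after its values had been seen, had 43.9, 44.2 and 57.6 TPM in sedentary muscle. At 0 h it had 80.8, 64.4 and 66.3 TPM in untrained and 80.8, 71.1 and 66.0 TPM in trained libraries. All lay above sedentary muscle, as was so for 22.9% and 26.3% of all tested genes. The log2 fold change of Atf4 was 0.54 in untrained and 0.58 in trained muscle (limma adjusted p = 0.012 and 0.0061), just below the fold threshold. It was 0.44 and 0.50 without the shared library (limma adjusted p = 0.062 and 0.026). In untrained muscle at 6 h it was called at 0.60 (limma adjusted p = 0.0046), and it fell below the fold threshold without sedentary replicate 1 or 2 or untrained 6 h replicate 2 or 3, where the lowest value was 0.51. It was also below this threshold after median-of-ratios scaling (0.58) and when TPM were rescaled without the mitochondrial genome and the 10 highest genes (0.53). In trained muscle at 6 h it was 0.43 (limma adjusted p = 0.031). Trained minus untrained, the log2 level of Atf4 at 6 h was −0.16 (SE 0.12, limma adjusted p = 0.52).

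Of the other ATF4 targets, 3 of 11 tested genes rose at 0 h in each training state, and the median log2 fold change of this list was 0.0108 in untrained and 0.049 in trained muscle, below that of all tested genes. Ddit4, an inhibitor of mTORC1, rose from 1.36 ± 0.341 TPM to 32.1 ± 9.89 TPM in the untrained and 37.2 ± 15.3 TPM in the trained 0 h group (SD, n = 3), and was 6.07 ± 2.01 and 5.56 ± 0.304 TPM at 6 h. Its log2 fold changes were 4.10 and 4.26 at 0 h and 1.78 and 1.72 at 6 h (limma adjusted p at most 0.0021). Gpt2, a mitochondrial alanine aminotransferase, was 2.02-fold to 2.21-fold higher in the 0 h and 6 h groups, with log2 fold changes of 1.00 and 1.10 at 0 h and 1.02 and 1.12 at 6 h (limma adjusted p at most 0.00088). Jdp2, a repressor of the AP-1 family, rose at 0 h with log2 fold changes of 1.09 and 0.98 (limma adjusted p = 0.00026 and 0.00066). Of this list 2 of 11 rose in each of the 6 h groups, and the calls at 0 h held without the shared library.

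Amino acid transporters other than LAT1 also changed. Slc38a2, which brings in small neutral amino acids such as alanine, serine and glutamine, rose in untrained muscle from 10.3, 13.1 and 14.4 TPM to 32.3, 31.9 and 23.6 TPM at 0 h and 24.8, 50.4 and 35.6 TPM at 6 h, without overlap. Such a rise without overlap was seen in 22.9% of all tested genes at 0 h and 11.7% at 6 h in untrained muscle. Trained muscle had 32.3, 29.0 and 24.4 TPM at 0 h and 17.0, 14.8 and 17.3 TPM at 6 h. The log2 fold changes at 0 h were 1.18 and 1.15 (limma adjusted p = 0.0020 and 0.0024), and 1.10 and 1.06 without the shared library. At 6 h the log2 fold change in untrained muscle was 1.47 (limma adjusted p = 0.00030), and trained muscle was lower than untrained muscle by a log2 difference of −1.09 (SE 0.21, limma adjusted p = 0.0067). The 3 trained libraries at 6 h were below every untrained library of that time, as was so for 11.5% of all tested genes.

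Slc38a3, a glutamine transporter, had 32.9, 29.5 and 28.0 TPM in trained 6 h libraries against 17.0, 20.1 and 18.9 TPM in sedentary and 19.8, 17.2 and 18.8 TPM in untrained 6 h libraries. It rose in trained muscle with a log2 fold change of 0.68 (limma adjusted p = 0.010), a call lost without trained 6 h replicate 1 (0.61, limma adjusted p = 0.051). Slc7a2, a transporter of arginine and lysine, rose at 6 h with log2 fold changes of 1.07 in untrained and 1.05 in trained muscle (limma adjusted p = 0.014 and 0.016), to 10.6 ± 4.06 and 10.1 ± 2.54 from 4.51 ± 0.615 TPM (SD, n = 3). Its untrained call was lost without sedentary replicate 2 (0.98) or untrained 6 h replicate 3 (0.88), and its trained call without sedentary replicate 2 (0.95) or trained 6 h replicate 2 (0.98) or 3 (0.91). Slc7a8, the light chain LAT2, rose in trained muscle at 6 h by 0.68 (limma adjusted p = 0.015), a call lost without sedentary replicate 1 (0.60) or trained 6 h replicate 3 (0.57). Slc43a1, the neutral amino acid transporter LAT3, was the 1 transporter that fell, in untrained muscle at 6 h, with a log2 fold change of −1.04 (limma adjusted p = 0.0039) from 4.7 ± 0.981 to 2.01 ± 0.299 TPM. Of the 12 transporters tested, 1 rose at 0 h in untrained and 1 in trained muscle, 2 rose and 1 fell at 6 h in untrained muscle, and 3 rose in trained muscle.

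Of the other one-carbon genes, Mat2a, which makes the methyl donor S-adenosylmethionine, rose 2.1-fold and 1.91-fold at 0 h, from 34.4 ± 2.12 to 72.2 ± 6.66 and 65.6 ± 2.33 TPM (SD, n = 3). Its log2 fold changes were 1.06 and 0.92 (limma adjusted p = 9.1e-06 and 3.5e-05), and 1.11 and 0.91 without the shared library. In untrained muscle at 6 h it was called at 0.64 (limma adjusted p = 0.0011), and without untrained 6 h replicate 2 it was 0.54, below the fold threshold. It was the 1 gene of 7 tested in the methionine cycle and transsulfuration that was called. None of the 8 tested genes of mitochondrial folate and glycine cleavage was called in any comparison (0 of 8), and the median log2 fold change of this list in untrained muscle was 0.0798 at 0 h and −0.0756 at 6 h.

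In the cytosolic folate list, Shmt1, the cytosolic counterpart of Shmt2, and Aldh1l1, which oxidises formyl-tetrahydrofolate, had higher levels at 6 h when mice had trained. Shmt1 had 4.41, 4.54 and 6.29 TPM in trained and 3.02, 3.05 and 3.01 TPM in untrained libraries, a log2 difference of 0.65 (SE 0.14, limma adjusted p = 0.012). Aldh1l1 had 4.79, 4.48 and 4.64 TPM against 2.73, 2.93 and 3.11 TPM, a log2 difference of 0.59 (SE 0.12, limma adjusted p = 0.0077). Neither pair of groups overlapped, and 7.4% of all tested genes were higher in trained muscle without overlap in this comparison. The Shmt1 call was lost without trained 6 h replicate 3 (0.50, limma adjusted p = 0.057), and that of Aldh1l1 without trained 6 h replicate 1 (0.57) or untrained 6 h replicate 1 (0.55). Against sedentary muscle neither gene was called, with log2 fold changes of 0.50 for Shmt1 in trained and −0.43 for Aldh1l1 in untrained muscle at 6 h (limma adjusted p = 0.026 and 0.029), below the fold threshold. The mitochondrial members Shmt2 and Mthfd2 differed by 0.03 and −0.17 in the same comparison (limma adjusted p = 0.81 and 0.65).

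Among the 20 cytosolic aminoacyl-tRNA synthetases, all tested, Eprs, which charges glutamate and proline tRNAs, was called in untrained muscle at 6 h. It rose from 28.2 ± 1.22 to 44.0 ± 3.48 TPM (SD, n = 3), with a log2 fold change of 0.63 (limma adjusted p = 2.7e-05). This call was lost when TPM were rescaled without the mitochondrial genome and the 10 highest genes (0.57, below the fold threshold). The trained 6 h mean was 39.8 ± 2.88 TPM, a log2 fold change of 0.49 (limma adjusted p = 0.00049), also below the fold threshold. Trained minus untrained, Eprs differed by −0.14 at 6 h (limma adjusted p = 0.30). None of the 11 tested sestrin and GATOR genes was called (0 of 11). Between trained and untrained muscle at 6 h, 3 pathway genes were higher in trained muscle, namely Shmt1, Aldh1l1 and Slc38a3, and 3 were lower, namely Atf3, Ppp1r15a and Slc38a2. Limma called 0 of the 95 tested pathway genes between the training states at 0 h or 72 h. At an unadjusted p below 0.05 were 2 and 12 of them, beside 143 and 1769 of all 11819 tested genes. The 0 h counts include the shared library, and without it 527 of all tested genes had such a p.

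**Figure D4:**
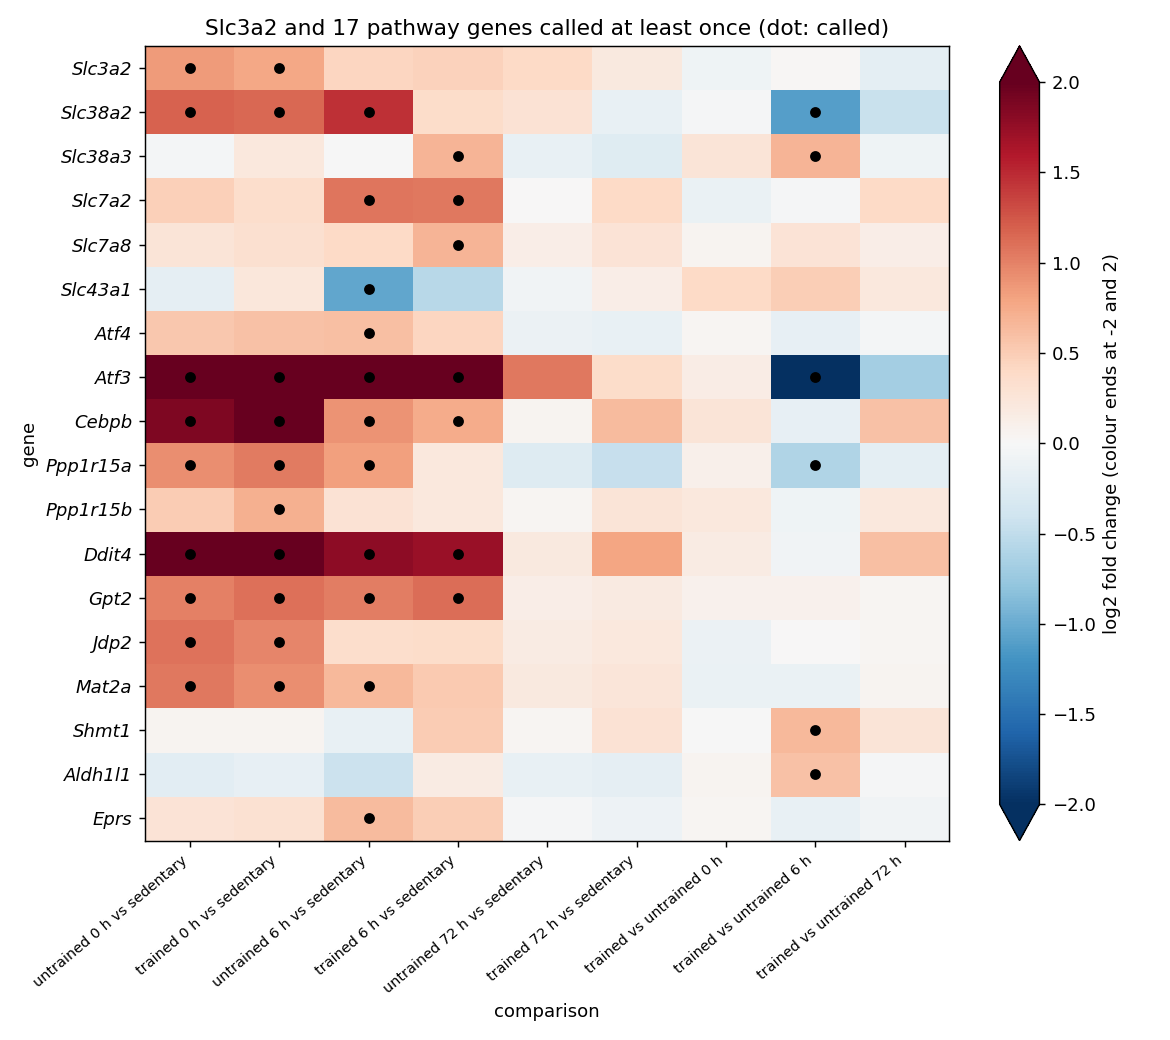
Log2 fold changes (colour) of Slc3a2 and of the 17 pathway genes called at least once (rows) in the 9 comparisons (columns), with a dot where the gene was called. Calls lie in the 0 h and 6 h columns against sedentary muscle and in the trained vs untrained 6 h column, and the 72 h columns hold 0 calls.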

How the data were processed

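Bulk RNA-seq of mouse quadriceps muscle was analysed in 7 groups of 3 columns, which hold 20 distinct libraries. The authors prepared them with a kit that does not mark strand, aligned paired reads to GRCm39 with STAR (2.7.9 in the submitters' processing notes), quantified them with salmon 1.5.0 and deposited TPM per gene symbol, which carry no read counts. Library totals ranged from 997304 to 997921 TPM, and genes of the mitochondrial genome held 37.7% to 48.0% of it. All columns were assigned from the labels, and 0 were left unassigned.

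TPM were transformed to log2(TPM + 0.5), a scale that understates the change of low genes, and those with 1 TPM or more on average were modelled in R 4.3.3 (limma 3.58.1) with a mean per group, a variance trend and 14 residual degrees of freedom (12 without the shared library). P values were two-sided and adjusted over all 11819 tested genes within a comparison (Benjamini-Hochberg). Calls had to pass 0.05 in adjusted p and 1.5-fold in size. The procedure was tested on simulated data. Alternatives were other pseudocounts, filters and scalings, other sets of samples, a replicate block, and libraries left out in turn. The fit with a minimum of 0.05 TPM was added after the data had been seen, as were its repeats with libraries left out. The members and lists were chosen with earlier results of these data known.

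All 10 members were named, with every library's value for those called or under 1 TPM, and from each pathway list at most the 3 called genes with the largest change per comparison. Atf4, Ppp1r15b and genes sharing exon bases with members were named outside this rule, after their values had been seen. The 3 genes most like a called member were those with the highest Pearson's r. Gene positions and exon overlaps came from the GRCm39 annotation and promoters from RefSeq (GRCm38.p6). Python 3.11.15 and matplotlib 3.10.9 made the figures.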

Additional observations from a re-analysis of the deposited data

Results flagged for a closer look

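At 6 h, 6 pathway genes beside the members were called between the training states (limma, Benjamini-Hochberg adjustment). In a model of these 2 groups alone, none of the 6 was called (0 of 6, adjusted p between 0.0675 and 0.344 by limma). Atf3 was lower in trained muscle by a log2 difference of −3.384 (SE 0.5143, adjusted p = 0.0012), with 32.5, 6.94 and 3.56 TPM in trained and 109.0, 149.0 and 68.9 TPM in untrained libraries, and the call held when each library was left out (−4.25 to −2.73). Slc38a2 was lower by −1.094 (adjusted p = 0.0067), which also held (−1.35 to −0.84). Ppp1r15a was lower by −0.6072 (adjusted p = 0.042), a call lost in 5 of 6 fits that left out 1 library (−0.85 to −0.46), all but that without untrained 6 h replicate 1.

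Slc38a3 was higher by 0.6779 (adjusted p = 0.018 by limma), a call lost without trained 6 h replicate 1 (0.61) or untrained 6 h replicate 2 (0.62). Shmt1 was higher by 0.6458 (adjusted p = 0.012 by limma), lost without trained 6 h replicate 3 (0.50). Aldh1l1 was higher by 0.5881 (adjusted p = 0.0077 by limma), below the fold threshold without trained 6 h replicate 1 (0.57) or untrained 6 h replicate 1 (0.55). In the same comparison summed macrophage markers were 33.3 to 48.8 TPM in trained and 35.2 to 74.2 TPM in untrained muscle, with 2 of 7 tested called lower (Cd68 −1.47, Csf1r −0.78). Summed fibre markers were 54800 to 63200 against 62600 to 65900 TPM, with 1 of 7 called, Mb, which was higher by 0.73. Their part in these differences was not tested.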

How the results depend on the processing

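The number of the 10 genes called was 1 in untrained and 1 in trained muscle at 0 h and 0 elsewhere. Without a fold threshold it was 2 in untrained and 2 in trained muscle at 0 h and 1 in trained muscle at 6 h. In trained muscle at 0 h it was 0 when TPM were rescaled without the mitochondrial genome and the 10 highest genes, in a model of these groups alone, and with the shared library left out, and 0 to 1 when single libraries were left out. In untrained muscle at 6 h it was 1 (Slc7a5) with no filter on low values, 2 with the lower minimum of 0.05 TPM added after seeing the data, and 0 to 1 when single libraries were left out. In untrained muscle at 0 h, Slc3a2 remained called in 6 of 6 fits that left out a library (0.77 to 0.92). No alternative reversed a direction among the named genes that were called. In trained muscle at 0 h the log2 fold change of Slc3a2 was 0.62 (limma adjusted p = 0.055) after the rescaling and 0.78 (limma adjusted p = 0.10) in the model of these groups alone. In that model, 16 of 41 calls of other named genes were lost. The cause of these differences was not tested. With a replicate block the counts of members called were 1, 1 and otherwise 0, as without it, and Ppp1r15a between trained and untrained muscle at 6 h, at −0.61, lost its call (limma adjusted p = 0.064). Libraries with the same number correlated between −0.115 and 0.134 (median 0.018, 62 pairs) in their deviations from group means. Those with different numbers correlated between −0.383 and 0.246 (median −0.00516, 126 pairs). No clear pairing by number was seen, though with 3 libraries per group this check cannot exclude it. Depth is unknown in TPM, which limits every statement on the 6 genes below 1 TPM.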
